A study of Mus musculus with 23 samples.

Results

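The genes described here build and serve the primary cilium: 54 mouse genes of intraflagellar transport, the BBSome, the transition zone and connecting cilium, and the handling of lipid-anchored ciliary proteins. They were taken by gene symbol from the 52143 genes of the deposited gene table and fall into 18 genes of intraflagellar transport (IFT), 12 of the BBSome, 18 of the transition zone and 6 of lipidated cargo and ciliary GTPases. All 54 passed the filter on low counts in each fit, so the counts below cover every member.

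The material was neural retina dissected from organoids, 12 organoids being named for days 12 to 32, grown from 1 clone of wild-type induced pluripotent stem cells that carry the rod reporter Nrl-GFP. From day 10 the organoids received either bovine serum albumin (BSA) alone, or linoleic acid (LA) or docosahexaenoic acid (DHA) bound to BSA at 26 µM. From day 26 the medium of every group also held B27, non-essential amino acids and 2% serum, and part of the organoids received fibroblast growth factor 1 (FGF1) at 200 ng/ml. The 23 libraries of stranded polyadenylated RNA were 2 each for BSA, LA and DHA at day 26, 3 each for BSA, LA and DHA at day 32 without FGF1, 3 for BSA with FGF1, 3 for LA with FGF1 and 2 for DHA with FGF1. The labels call them biological replicates of 1 clone, so p-values measure the spread between libraries made from organoids of that clone.

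The outer segment of a photoreceptor is a modified primary cilium, and everything that reaches it passes the connecting cilium, a long transition zone. IFT trains, driven outward by kinesin-2 and back by dynein-2, move cargo along the axoneme; the BBSome, a coat-like complex recruited by the GTPase Arl6, rides on these trains and carries membrane proteins, and Arl3 with its partners releases lipid-anchored proteins inside the cilium. Inherited defects in many of these genes cause retinal degeneration, among them Bardet-Biedl syndrome, Joubert syndrome and Leber congenital amaurosis.

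The libraries formed 2 sets by depth. The deeper set held 12 libraries with 16029580 to 20510550 counts: the 6 day 26 libraries, and from day 32 with FGF1 the replicates numbered 1 and 2 in all 3 media. The shallower set held 11 libraries with 10405663 to 11888224 counts: the 9 grown to day 32 in the absence of FGF1, plus the third replicates that BSA and LA had with FGF1. Mitochondrial transcripts took 3.02 to 4.24% of counts in the deeper libraries and 5.55 to 12.5% in the shallower ones. The authors left 5 shallower libraries out of their normalized table: replicate 1 of BSA, LA and DHA without FGF1 and both shallower FGF1 libraries. Values in CPM, the count of a gene scaled to a common library total, are scaled within each set, and comparisons stay within a set unless stated. The main comparison, day 32 with FGF1 against day 26 in 6 against 6 deeper libraries, therefore holds age, the change of medium and FGF1, which cannot be told apart.

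The X-box, bound by RFX transcription factors and known from the promoters of ciliary genes, was looked for because several members changed together. It consists of a pair of half-sites of 6 bases with a spacer of up to 3 bases, and was searched on both strands of RefSeq windows (GRCm38.p6) from 250 bases before to 50 bases after each annotated start. Windows were at hand for 50 of the 54 members, and 8 of these (16%) held a match, against 474 of 27025 genes (1.754%) and 1.528% of all 32851 windows. Of the members higher at day 32 with FGF1 (below), 5 of 21 held one, of the lower ones 0 of 4, and of those without a call 3 of 25. The 9 matches are shown with their surrounding 30 bases on the strand of the gene, the match in capitals; they are the sequences by which these 8 members stand out from most promoters. Of these matches, 5 began before the start and 4 after it. A match is a description of the letters and does not show that a factor binds there.

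Lztfl1, chr9:123717767-123717796, minus strand: tttctctGTTGCCATTGGCAACggcaggca
Ift57, first match, chr16:49699199-49699228, plus strand: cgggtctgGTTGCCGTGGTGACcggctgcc
Ift57, second match, chr16:49699226-49699255, plus strand: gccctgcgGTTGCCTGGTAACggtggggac
Kif17, chr4:138262170-138262199, plus strand: tcacggagGTTGCCCAGCAACggcgaacgc
Tctn2, chr5:124598679-124598708, plus strand: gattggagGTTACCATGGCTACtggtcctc
Bbs1, chr19:4906605-4906634, minus strand: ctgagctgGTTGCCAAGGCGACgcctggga
B9d2, chr7:25680788-25680817, plus strand: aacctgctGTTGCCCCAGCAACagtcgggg
Ahi1, chr10:20952560-20952589, plus strand: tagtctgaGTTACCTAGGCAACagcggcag
Tctn1, chr5:122264411-122264440, minus strand: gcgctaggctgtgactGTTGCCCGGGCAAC

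The sequence TAATCC, the core read by the photoreceptor factors Otx2 and Crx, was searched in the same windows on both strands and overlapped none of the X-box matches. It was in 2 of 50 members (4%), against 8.137% of all genes and 7.062% of all windows. Both members were higher at day 32 with FGF1. They are shown because Rpgrip1 is the most abundant member and Bbs1 also holds an X-box; in Rpgrip1 the match lies on the opposite strand and reads as its reverse complement.

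Bbs1, chr19:4906807-4906836, minus strand: tcagtctagtctTAATCCctaaaaagcgct
Rpgrip1, chr14:52110863-52110892, plus strand: gctaaaaggcctGGATTAgtgtctcctcta

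**Figure D1:**
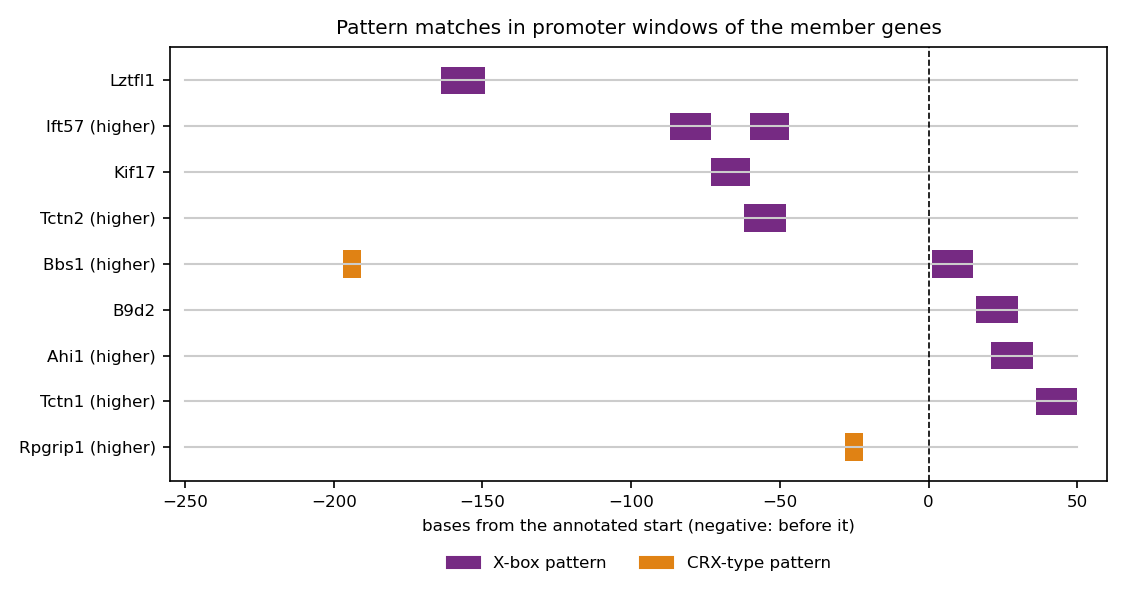
Position of each X-box match (purple bars) and TAATCC match (orange bars, marked CRX-type pattern) in the promoter windows of 9 members, in bases from the annotated start (x axis, dashed line at the start); grey lines mark the window and the word higher the members called higher at day 32 with FGF1. The first bases of the X-box matches lie between 164 bases before and 37 bases after the start, and those of Bbs1, B9d2, Ahi1 and Tctn1 lie after it.

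At day 32 with FGF1, 9 of the 12 BBSome genes were higher than at day 26, the connecting cilium genes Cep290, Rpgrip1 and Lca5 were higher too, and most of the IFT trains did not pass the test. Of the 54 members, 21 were higher and 4 lower (edgeR quasi-likelihood test, Benjamini-Hochberg adjusted p under 0.05 over 20111 genes). Among all genes tested, 14.6% were higher and 14.1% lower. The median log2 difference was 0.12 over the members and 0.00266 over all genes, and 38 of 54 members had a positive difference. In the BBSome group 9 of 12 genes were higher and none lower (median 0.48), in IFT 3 of 18 were higher and 1 lower (0.03), in the transition zone 7 of 18 were higher and 1 lower (0.13), and among lipidated cargo genes 2 of 6 were higher and 2 lower (0.08). The 95% interval of a member spanned a median of 0.23 log2 units on either side of the estimate. It is not adjusted for the number of genes tested. Some members with larger differences were not called (below), so changes of that size and somewhat above it could be missed. In whole tissue, fewer cells of a type and less RNA per cell cannot be told apart.

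**Figure D2:**
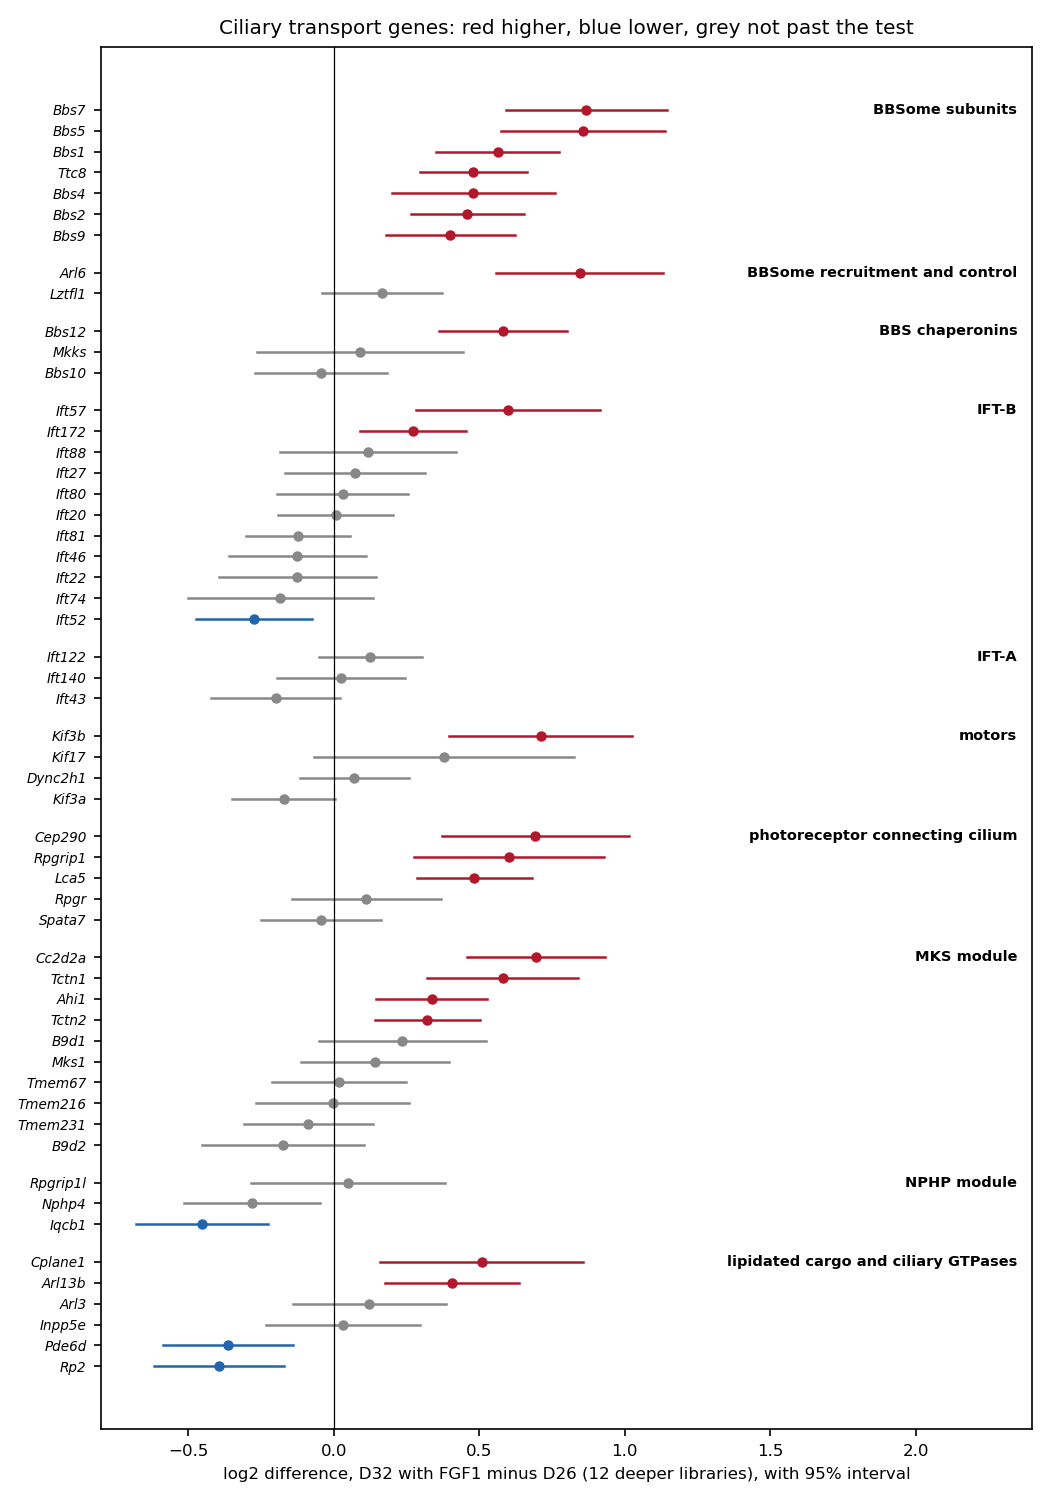
Log2 difference of day 32 with FGF1 minus day 26 (x axis) for the 54 members by module, with 95% intervals, from 6 against 6 deeper libraries. The 7 BBSome subunits among the members lie to the right of 0, whereas IFT-A and most of IFT-B lie around it.

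The values of the 6 libraries on each side were fully apart in 13 members, 11 above and 2 below, which is 24.1% of the members against 16.2% of all genes. Of the 12 BBSome genes 7 were apart in this way, and of the 18 IFT genes 1. Within day 26, replicate 2 of LA held the highest of the 6 values in 24 of 54 members and replicate 1 of LA in 18, while replicate 2 of DHA held the lowest in 16. Within day 32 with FGF1, replicate 2 of DHA was highest in 22 members and replicate 2 of BSA in 16, and replicate 2 of LA was lowest in 21. These counts were taken over the members only, and whether the same libraries are extreme over all genes was not tested.

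The 7 BBSome subunits among the members were higher at day 32 with FGF1. Bbs7, a propeller subunit (ENSMUSG00000037325, chr3:36573142-36613477, GRCm38), ran from 46.3 to 68.4 CPM with a median of 55.0 at day 26 and from 83.3 to 134 with a median of 96.6 at day 32, without overlap. Its log2 difference was 0.87 (SE 0.13, 95% interval 0.59 to 1.15, edgeR adjusted p = 4.4e-04), a fold of 1.83. Bbs5, a subunit that binds phosphoinositides (chr2:69647171-69667571), went from 28.0 to 44.8 (median 34.6) to 51.9 to 83.7 (median 59.4), a log2 difference of 0.86 (SE 0.13, 0.58 to 1.14, adjusted p = 5.2e-04). These were the largest differences of the complex, and the day 26 and day 32 libraries of both genes were apart.

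Bbs1, the subunit that contacts Arl6 and the gene most often mutated in Bardet-Biedl syndrome, read 64.5 and 74.9 CPM in BSA, 76.8 and 85.1 in LA and 55.0 and 58.9 in DHA at day 26. At day 32 with FGF1 it read 87.2 and 115 in BSA, 95.5 and 87.9 in LA and 104 and 120 in DHA, so every day 32 library was above every day 26 library. The difference was 0.56 (SE 0.10, 0.35 to 0.77, adjusted p = 0.0012). Ttc8 (Bbs8) differed by 0.48 (adjusted p = 0.0014), Bbs4 by 0.48 (0.0155), Bbs2 by 0.46 (0.0026) and Bbs9 by 0.40 (0.0115), each by the same edgeR test. Ttc8 and Bbs2 did not overlap between the days, with 84.7 to 109 against 111 to 144 CPM and 67.0 to 91.0 against 95.1 to 116, whereas Bbs4 and Bbs9 did. Bbip1, a further BBSome subunit that is not a member and was picked after its values were seen, ran the other way without passing the test. It had 45.6 to 56.8 CPM at day 26 and 39.7 to 45.0 at day 32, without overlap, and differed by −0.25 (95% interval −0.45 to −0.06, edgeR adjusted p = 0.0555).

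Arl6 (Bbs3), the GTPase that brings the BBSome to membranes (chr16:59612949-59639391), had 122 and 109 CPM in BSA, 161 and 106 in LA and 115 and 114 in DHA at day 26. At day 32 with FGF1 its values were 176 and 250 in BSA, 178 and 192 in LA and 224 and 297 in DHA. No library of one day overlapped the other, and the difference was 0.84 (SE 0.13, 0.56 to 1.13, edgeR adjusted p = 6.4e-04). Lztfl1, which restrains BBSome entry into the cilium, differed by 0.16 (adjusted p = 0.22), with 79.2 to 107 CPM at day 26 and 79.3 to 118 at day 32.

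The chaperonin-like genes that help assemble the BBSome differed among themselves. Bbs12 was higher, from 24.9 to 31.4 CPM (median 29.0) at day 26 to 33.6 to 53.0 (median 43.0), a log2 difference of 0.58 (SE 0.10, 0.36 to 0.80, edgeR adjusted p = 0.0013). Bbs10 had a median of 12.4 CPM at both days and a difference of −0.04, and Mkks, with medians of 10.2 and 10.8 CPM, differed by 0.09. Summed over the 12 genes, the BBSome group held 639 to 779 CPM (median 679) at day 26 and 914 to 1268 (median 982) at day 32 with FGF1, with no overlap.

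**Figure D3:**
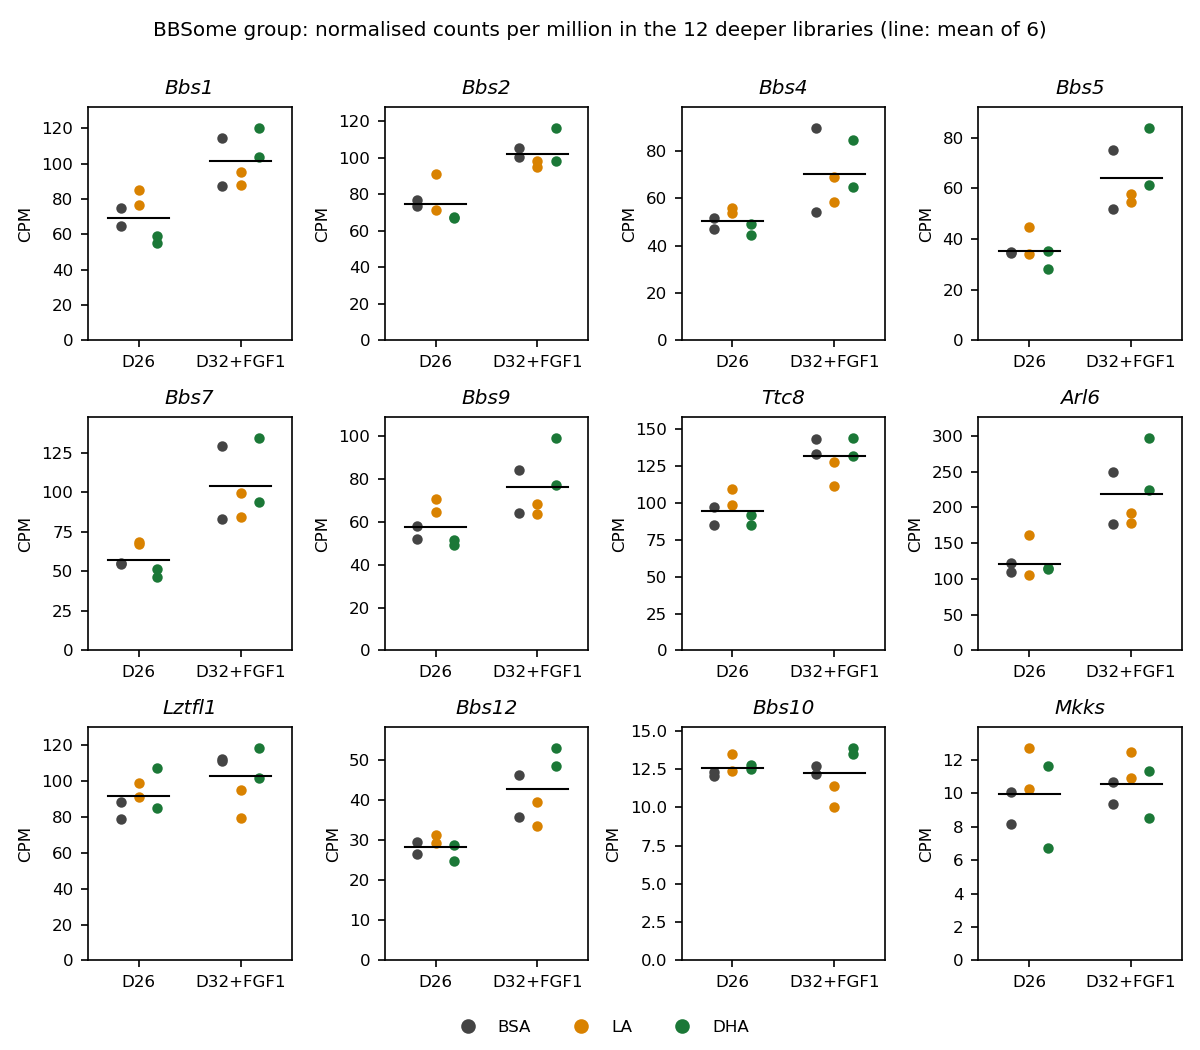
CPM of the 12 BBSome genes, 1 panel each with its own axis from 0, in the 12 deeper libraries (points, 6 at day 26 and 6 at day 32 with FGF1, coloured by medium; the line is the mean of 6). Bbs1, Bbs2, Bbs5, Bbs7, Bbs12, Ttc8 and Arl6 show no overlap between the days, while Bbs10, with a median of 12.4 CPM at both days, and Mkks overlap.

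Of the 11 genes of the IFT-B complex, which carries cargo outward, 2 were higher and 1 lower. Ift57 was higher, with 13.1 to 19.5 CPM (median 15.9) at day 26 and 19.3 to 30.5 (median 22.2) at day 32, a difference of 0.60 (SE 0.14, 0.28 to 0.91, edgeR adjusted p = 0.0090). The groups overlapped by a narrow margin. Ift172, the largest peripheral IFT-B protein, differed by 0.27 (SE 0.08, adjusted p = 0.0300; 74.8 to 86.1 against 85.5 to 107 CPM), and Ift52, a core subunit, by −0.27 (SE 0.09, adjusted p = 0.0424; 43.0 to 48.0 against 31.7 to 45.5 CPM).

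The calls of Ift172 and Ift52 depended on single libraries. Both were lost without replicate 1 or 2 of BSA, replicate 1 of LA or replicate 2 of DHA at day 26, and without replicate 2 of BSA, LA or DHA at day 32 with FGF1; Ift172 was also lost without replicate 1 of DHA at day 26 or replicate 1 of LA at day 32. Each such fit, here and for the calls lost or gained in this way below, leaves 1 library in an arm. That library is assumed to vary like the other groups. In those edgeR fits the adjusted p of Ift172 ran up to 0.09998 and that of Ift52 up to 0.135.

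The other 8 IFT-B genes had differences between −0.18 (Ift74) and 0.12 (Ift88), and none passed. Ift20, which also works at the Golgi, had the smallest difference of all IFT genes, 0.01, with 33.8 to 41.1 CPM at day 26 and 32.4 to 42.5 at day 32. Ift46 had the highest level per length of the group and read 42.2 to 59.6 against 42.2 to 51.1 CPM. None of the 3 IFT-A genes, which serve the return trip and membrane protein entry, passed: Ift122 differed by 0.13, Ift140 by 0.02 and Ift43 by −0.20.

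Among the motors, Kif3b was higher and its partner subunit Kif3a did not pass. Kif3b (chr2:153291413-153333390) read 71.6 and 82.8 CPM in BSA, 93.7 and 85.7 in LA and 62.6 and 66.3 in DHA at day 26. At day 32 with FGF1 it read 100 and 155 in BSA, 108 and 118 in LA and 99.8 and 171 in DHA, a log2 difference of 0.71 (SE 0.14, 0.40 to 1.03, edgeR adjusted p = 0.0034) without overlap. Kif3a had 120 to 145 CPM at day 26 and 110 to 124 at day 32, a difference of −0.17 (95% interval −0.35 to 0.00, adjusted p = 0.136). Kif17, the homodimeric kinesin-2 and the least abundant member (2.90 to 5.55 CPM), differed by 0.38, and Dync2h1, the heavy chain of dynein-2, by 0.07. The summed IFT group held 910 to 1020 CPM at day 26 and 921 to 1095 at day 32, so the groups overlapped.

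In the connecting cilium module 3 of 5 genes were higher. Cep290, the large protein that links the axoneme to the ciliary membrane (chr10:100487558-100574840), ran from 135 to 276 CPM (median 164) at day 26 and from 244 to 327 (median 302) at day 32, a difference of 0.69 (SE 0.15, 0.37 to 1.01, edgeR adjusted p = 0.0046). Rpgrip1, the scaffold that holds Rpgr in the photoreceptor connecting cilium (chr14:52110704-52163546), ran from 833 to 1628 (median 1040) to 1486 to 1862 (median 1542), a difference of 0.60 (SE 0.15, 0.27 to 0.93, adjusted p = 0.0108). In both genes the highest day 26 value came from replicate 2 of LA, and this library alone made the groups overlap.

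Lca5 (lebercilin), which binds IFT proteins, ran from 58.4 to 69.9 CPM at day 26 and from 70.0 to 111 at day 32, a difference of 0.48 (SE 0.09, 0.28 to 0.68, edgeR adjusted p = 0.0022), with a gap of only 0.1 CPM between the groups as printed. Rpgr, a GTPase regulator of the connecting cilium, differed by 0.11 and Spata7, which stabilises that zone, by −0.04, neither passing the test.

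Of the 10 genes of the MKS module, the membrane-near part of the transition zone gate, 4 were higher. Cc2d2a was the most clearly separated, with 71.0 to 111 CPM (median 84.0) at day 26 and 131 to 149 (median 137) at day 32, a difference of 0.70 (SE 0.11, 0.46 to 0.93, edgeR adjusted p = 6.8e-04). The tectonic gene Tctn1 went from 45.3 to 69.3 (median 55.5) to 73.5 to 91.2 (median 82.2), a difference of 0.58 (SE 0.12, 0.32 to 0.84, adjusted p = 0.0037). Ahi1 (jouberin) differed by 0.34 (adjusted p = 0.0138) and Tctn2 by 0.32 (0.0128). The other 6 ranged from −0.17 (B9d2) to 0.24 (B9d1), and Tmem216, with 11.6 to 15.8 against 12.8 to 16.5 CPM, had the smallest difference of all members. In the NPHP module, the inner part of the gate, 1 of 3 was lower and none higher.

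That gene, Iqcb1 (Nphp5, chr16:36828385-36872721), is named for being the only lower member of the transition zone and was picked after its values were seen. It ran from 46.5 to 61.8 CPM (median 50.7) at day 26 and from 29.97 to 45.3 (median 39.0) at day 32, a difference of −0.45 (SE 0.10, −0.68 to −0.23, edgeR adjusted p = 0.0071). Its product forms a complex with that of Cep290, which was higher in the same libraries. Nphp4 differed by −0.28 (adjusted p = 0.0692; −0.34 and 0.0405 without replicate 1 of LA at day 26) and Rpgrip1l by 0.05. When all 23 libraries were fitted with a term for the depth set, Iqcb1 (−0.48, adjusted p = 0.0829), Tctn1 (0.56, 0.199) and Tctn2 (0.30, 0.274) kept their direction and lost their call.

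In the group of lipidated cargo and ciliary GTPases, Arl13b and Cplane1 were higher and Rp2 and Pde6d lower; Cplane1 is neither a GTPase nor known as lipidated cargo. Arl13b, a ciliary GTPase that activates Arl3, was higher, with 39.7 to 55.5 CPM (median 42.9) at day 26 and 52.1 to 69.9 (median 59.9) at day 32 (difference 0.41, SE 0.11, edgeR adjusted p = 0.0134). Rp2, which switches Arl3 off, was lower, with 22.6 to 26.7 (median 25.2) against 16.4 to 21.3 (median 19.2), a difference of −0.39 (SE 0.10, adjusted p = 0.0134) without overlap. Pde6d, the chaperone of prenylated proteins, was lower as well, with 62.9 to 89.3 (median 78.3) against 53.4 to 64.0 (median 60.2) and a difference of −0.36 (SE 0.10, adjusted p = 0.0193).

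Arl3 itself differed by 0.12 and Inpp5e, the farnesylated ciliary phosphatase, by 0.03, and neither passed. Cplane1, which works in recruiting IFT-A at the base of the cilium (chr15:8169106-8271158), was called at 0.51 (SE 0.16, 0.16 to 0.86, edgeR adjusted p = 0.0325), with 55.5 to 102 CPM (median 70.2) against 73.7 to 136 (median 112). Its call was lost without replicate 1 of BSA, replicate 1 of LA or replicate 2 of DHA at day 26 and without replicate 1 or 2 of BSA, replicate 1 of LA or replicate 2 of DHA at day 32. The call of Pde6d was lost without replicate 1 of BSA or replicate 2 of DHA at day 26, or replicate 2 of BSA or LA at day 32. With all 23 libraries and a term for the depth set, Rp2 (−0.42, adjusted p = 0.175), Pde6d (−0.38, 0.154) and Cplane1 (0.49, 0.261) were no longer called, so that fit held no lower member.

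Other ciliary genes moved in both directions as well. Of 33 such genes outside the 54, 10 were higher and 4 lower, with a median difference of 0.03. Tmem237, another transition zone gene, differed by 0.79 (edgeR adjusted p = 2.4e-04), and the phosphoinositide-binding Tulp3 by 0.50 and Tulp1 by 0.43. Wdr60, an intermediate chain of the same dynein-2 whose heavy chain is Dync2h1, was lower by −0.96 (adjusted p = 8.8e-05).

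Of 11 factors that regulate ciliary or photoreceptor genes, 1 was higher and 1 lower. Rfx2, a member of the family that binds the X-box, stood at 5.93 to 9.34 CPM at day 26 and 21.8 to 45.5 at day 32 with FGF1, a difference of 2.26 (SE 0.23, edgeR adjusted p = 3.7e-05). Otx2 was lower by −0.74 (adjusted p = 3.1e-04). Rfx7 differed by −0.23 and Rfx1 by 0.27, neither passing. Any part of Rfx2 in the members' values was not tested.

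Cell type markers moved in the same libraries. Of 14 photoreceptor genes 8 were higher and 1 lower (median 0.78), among them Rcvrn (4.33), Gnat1 (4.62) and Prph2 (1.18). The lower one was the cone opsin Opn1sw (−2.56, edgeR adjusted p = 0.0016), while the photoreceptor factors Nrl (0.23), Crx (0.06) and Nr2e3 (0.05) and the cone genes Gnat2 (0.18) and Arr3 (0.03) did not pass; these 6 were picked after their values were seen. The summed level of the 14 was 5187 to 7471 CPM at day 26 and 9353 to 15350 at day 32, and none was at 0, so the defining markers of retina were present. All 8 bipolar cell genes were higher (sum 231 to 316 against 579 to 772), 5 of 8 Müller glia genes were higher (1049 to 1771 against 2134 to 3068), and 9 of 10 progenitor and cell cycle genes were lower (518 to 811 against 233 to 391). Of motile cilia genes 3 were higher and 6 lower of 14 tested, with sums of 56.4 to 80.4 against 86.2 to 140 CPM, Dnah9 (3.57) and Ccno (1.66) among the higher and Rsph1 (−1.89) and Tekt1 (−1.60) among the lower. The sums of these 5 lists did not overlap between the days, like the BBSome sum, and their part in the members' differences was not tested. For motile cilia the sum rose although the median log2 difference of the list was −0.51, with 6 of 14 genes positive. The sums of the other lists overlapped. Amacrine and horizontal cell genes (3 higher and 3 lower of 9) held 788 to 1226 against 674 to 1006 CPM, and ganglion cell genes (1 and 1 of 8) 123 to 194 against 151 to 207. Pigment epithelium genes (0 higher and 3 lower of 6 tested, 1 at 0 at day 26) held 12.0 to 351 against 9.92 to 276, and mesenchyme genes (1 higher of 8) 20.5 to 99.2 against 30.7 to 490. The mitochondrial share of counts was 3.76 to 4.24% at day 26 and 3.02 to 3.87% at day 32 with FGF1.

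Per transcript length, Rpgrip1 was by far the most abundant member. Its level over the 12 deeper libraries was 852 ± 295 TPM (transcripts scaled to a common sum, SD, n = 12), followed by Arl6 at 327 ± 138, Arl3 at 177 ± 27.2 and Ttc8 at 173 ± 46.0. Arl3 and Ttc8 do not differ beyond their spread over these 12, which pool both days. By day, Arl6 stood at 212 ± 24.5 and 443 ± 98.4, Arl3 at 157 ± 14.1 and 198 ± 20.5, and Ttc8 at 134 ± 22.2 and 213 ± 20.9 (day 26 and day 32 with FGF1, SD, n = 6 each). The mean of Arl3 was above that of Ttc8 at day 26. At day 32 with FGF1 it was below by less than the SD, and this order was not tested. Levels on this scale were not adjusted between libraries as the tested CPM values were, and Arl3 did not pass the test between the days. At the other end stood Mkks at 11.6, Bbs10 at 9.00 and Kif17 at 3.10. Rpgrip1 stood at 628 ± 229 at day 26 and 1076 ± 134 at day 32 with FGF1 (SD, n = 6 each) on this scale.

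The make-up of transcripts was tested from the deposited transcript table, whose division of reads between isoforms is an estimate. Of 240 transcripts of 51 member genes, 3 changed their share of the gene's counts at day 32 with FGF1 (edgeR diffSpliceDGE, Benjamini-Hochberg adjusted p under 0.05), against 0.979% of all 44839 transcripts. This share is near the background and is no result about the members, so the 3 are given as a description. Cep290-201, a protein-coding form, took 0.00540 and 0.151% of the Cep290 counts in BSA, 10.8 and 15.1% in LA and 0.0726 and 0.499% in DHA at day 26. At day 32 with FGF1 it took 20.8 and 23.3% in BSA, 2.22 and 29.96% in LA and 19.1 and 26.2% in DHA (adjusted p = 1.1e-08). The groups overlapped through LA alone.

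Rpgrip1-201 and Ahi1-202, the other 2 transcripts called, each took a small share. Rpgrip1-201 had a mean of 0.0582% at day 26 and 0.284% at day 32 (adjusted p = 0.0016), and Ahi1-202 a mean of 0.346 and 0.811% (adjusted p = 0.0090), with diffSpliceDGE. Without replicate 2 of DHA at day 32 with FGF1 only 1 member transcript was called, and without replicate 1 of LA there were 5. With limma diffSplice, 9 of 240 member transcripts were called, and none of these 3 was among them (Cep290-201 at an adjusted p of 0.078). That tool also called more of all 44839 transcripts, 924 against 439 with diffSpliceDGE.

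Taken in each medium separately, the step from day 26 to day 32 with FGF1 called 6 members higher in BSA (4.25% of all genes higher, 2.58% lower), 14 higher in DHA (6.08% and 4.28%) and none in LA (3.34% and 1.81%), and 0 members lower in any medium. In LA 9 members and 3966 of all 20111 genes had an unadjusted p under 0.05. In BSA the 6 were Bbs7 (0.95), Ttc8 (0.60), Bbs5 (0.87), Arl6 (0.88), Cplane1 (1.05) and Cc2d2a (0.69), with edgeR adjusted p from 0.0252 to 0.0487. In DHA they included Bbs7 (1.22), Bbs5 (1.19), Arl6 (1.18), Bbs1 (0.97), Bbs12 (0.92), Cc2d2a (0.87), Bbs9 (0.81), Lca5 (0.71), Bbs2 (0.67) and Ttc8 (0.64). In LA the smallest p-values belonged to Nphp4 (−0.52), Cc2d2a (0.52) and Iqcb1 (−0.49), with adjusted p from 0.143 to 0.161.

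Each of these steps compares 2 with 2 libraries, and the counts depend on single ones. In BSA no member was called without either day 26 BSA library or without replicate 2 of BSA with FGF1, 3 without either day 26 DHA library and 2 without either LA library with FGF1. In DHA 7 were called without replicate 1 of DHA at day 26, 1 without replicate 2, and 2 without replicate 2 of DHA with FGF1. In LA, the difference of Cc2d2a was 0.88 without replicate 2 of LA at day 26, a fit that leaves 1 LA library at that day.

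The LA step was the smallest of the 3 in 42 of 54 members (77.8%), against 36.4% of all genes, and in 12 of 12 BBSome genes. The DHA step was the largest in 36 of 54 (66.7%, against 35.5% of all genes). The median step of the 54 genes was 0.19 in BSA, 0.01 in LA and 0.19 in DHA. These counts describe the fits and carry no test.

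The difference between steps was tested itself, and no member passed (edgeR, 0% of all genes called for DHA minus LA, 0% for DHA minus BSA and 0% for LA minus BSA). At an unadjusted p under 0.05 there were 8 members for DHA minus LA, 0 for DHA minus BSA and 3 for LA minus BSA, against 1272, 443 and 420 of all 20111 genes. For DHA minus LA the smallest p-values were those of Bbs9 (0.84, 95% interval 0.30 to 1.38), Bbs1 (0.79, 0.28 to 1.31) and Ift122 (0.63, 0.20 to 1.07), each with an adjusted p of 0.585. The difference was positive in 46 of 54 members and 9762 of 20111 genes, with medians of 0.29 and −0.01. For LA minus BSA it was positive in 5 of 54 members, with Cplane1 at −0.98 and Lztfl1 at −0.54. The differences share libraries with each other and with the comparisons of media below.

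**Figure D4:**
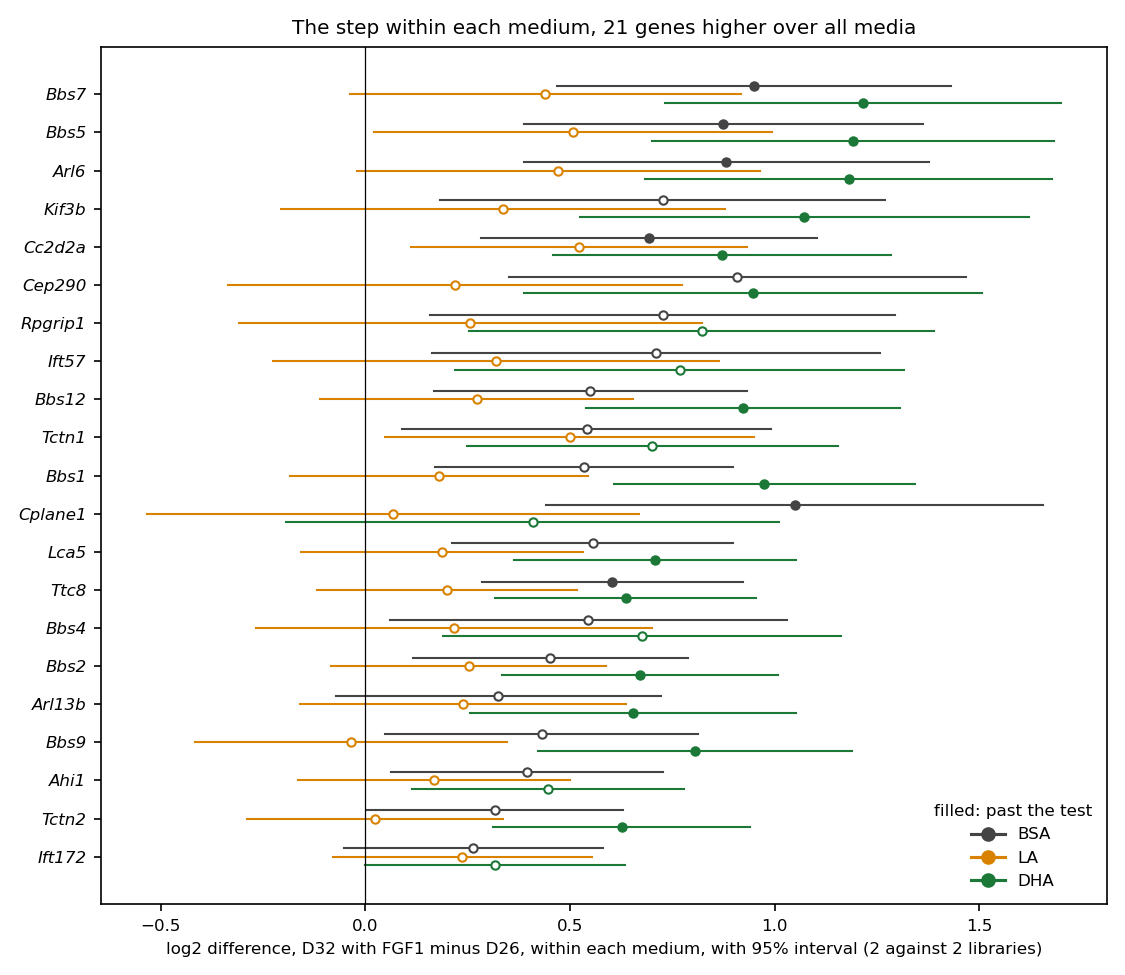
Log2 difference of day 32 with FGF1 minus day 26 within BSA, LA and DHA (points, 2 against 2 libraries each, with 95% intervals; filled where past the test) for the 21 members called higher over all media. The LA point is the leftmost of the 3 in every gene drawn, and no LA point is past the test.

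At day 26 no member differed between media (edgeR, 0% of all genes called for DHA minus LA, 0% for DHA minus BSA, 0% for LA minus BSA; DESeq2 and limma voom also called 0 members). For DHA minus LA the lowest p-values were those of Bbs1 (−0.51, 95% interval −0.87 to −0.14), Ift122 (−0.41, −0.72 to −0.10) and Bbs9 (−0.43, −0.81 to −0.04), each with an adjusted p of 1. Bbs9 read 58.2 and 52.1 CPM in BSA, 70.9 and 64.4 in LA and 51.4 and 49.4 in DHA. In all 3 genes both LA libraries were above both DHA libraries. DHA was below LA in 44 of the 54 members (positive in 10, with a median of −0.15), and LA was above BSA in 44 (median 0.11). The members are not independent of each other. These counts have no share over all genes beside them and carry no test, so they are no result about the members. At an unadjusted p under 0.05 there were 3 members for DHA minus LA and 0 for the other pairs, against 638 of all genes for DHA minus LA, 252 for DHA minus BSA and 356 for LA minus BSA.

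At day 32 with FGF1, in the deeper libraries, no member differed between media either. Of all genes, 0.00994% were called for DHA minus LA, 0% for DHA minus BSA and 0.0149% for LA minus BSA, and DESeq2 and limma voom called 0 members. DHA was above LA in 43 of 54 members (median 0.17) and LA above BSA in 6, opposite in direction to day 26. These counts, too, have no share over all genes beside them and carry no test. Neither they nor the opposite direction is a result about the members. The lowest p-values for DHA minus LA were those of Lca5 (0.45, 0.10 to 0.79), Bbs12 (0.47, 0.09 to 0.85) and Bbs9 (0.41, 0.03 to 0.80), with adjusted p from 0.507 to 0.612. Lca5 read 87.7 and 96.4 CPM in BSA, 76.1 and 70.0 in LA and 88.5 and 111 in DHA. At an unadjusted p under 0.05 there were 4 members for DHA minus LA and 0 for the other pairs, against 1530 of all genes for DHA minus LA, 546 for DHA minus BSA and 692 for LA minus BSA.

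At day 32 without FGF1, in the shallower libraries, Cplane1 stood apart in LA. It read 104, 58.7 and 50.1 CPM in BSA (replicates 1 to 3), 266, 215 and 105 in LA and 105, 40.9 and 68.2 in DHA. Replicates 1 and 2 of LA were thus above all other libraries of these groups, and replicate 3 of LA stood next to replicate 1 of BSA and of DHA. The shallower FGF1 libraries read 73.3 in BSA and 82.2 in LA. The edgeR difference was 1.49 for LA minus BSA (SE 0.30, 95% interval 0.82 to 2.15) and −1.48 for DHA minus LA (SE 0.30, −2.15 to −0.82), each with an adjusted p of 1. DESeq2 called both (adjusted p = 0.0126 and 0.0080) and limma voom neither (0.195 and 0.999). In the 6 kept libraries the values were 1.56 and −1.55, with an adjusted p of 1.

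No other member passed in these comparisons with any of the 3 tools, and by edgeR 0% of all genes were called for DHA minus LA, 0% for DHA minus BSA and 0% for LA minus BSA. Inpp5e (chr2:26396249-26409203) had the next lowest p for LA minus BSA and the lowest for DHA minus BSA. It read 21.6, 23.5 and 24.6 CPM in BSA, 17.7, 14.0 and 8.56 in LA and 11.2, 18.6 and 11.1 in DHA, so each BSA library was above each LA and DHA library. The differences were −0.80 for LA and −0.77 for DHA (unadjusted p = 0.043 and 0.048 with edgeR, adjusted p of 1). At an unadjusted p under 0.05 there were 2 members for DHA minus LA, 1 for DHA minus BSA and 2 for LA minus BSA, against 360, 288 and 243 of all 19484 genes, and the typical interval spanned 0.61 log2 units on either side of the estimate.

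**Figure D5:**
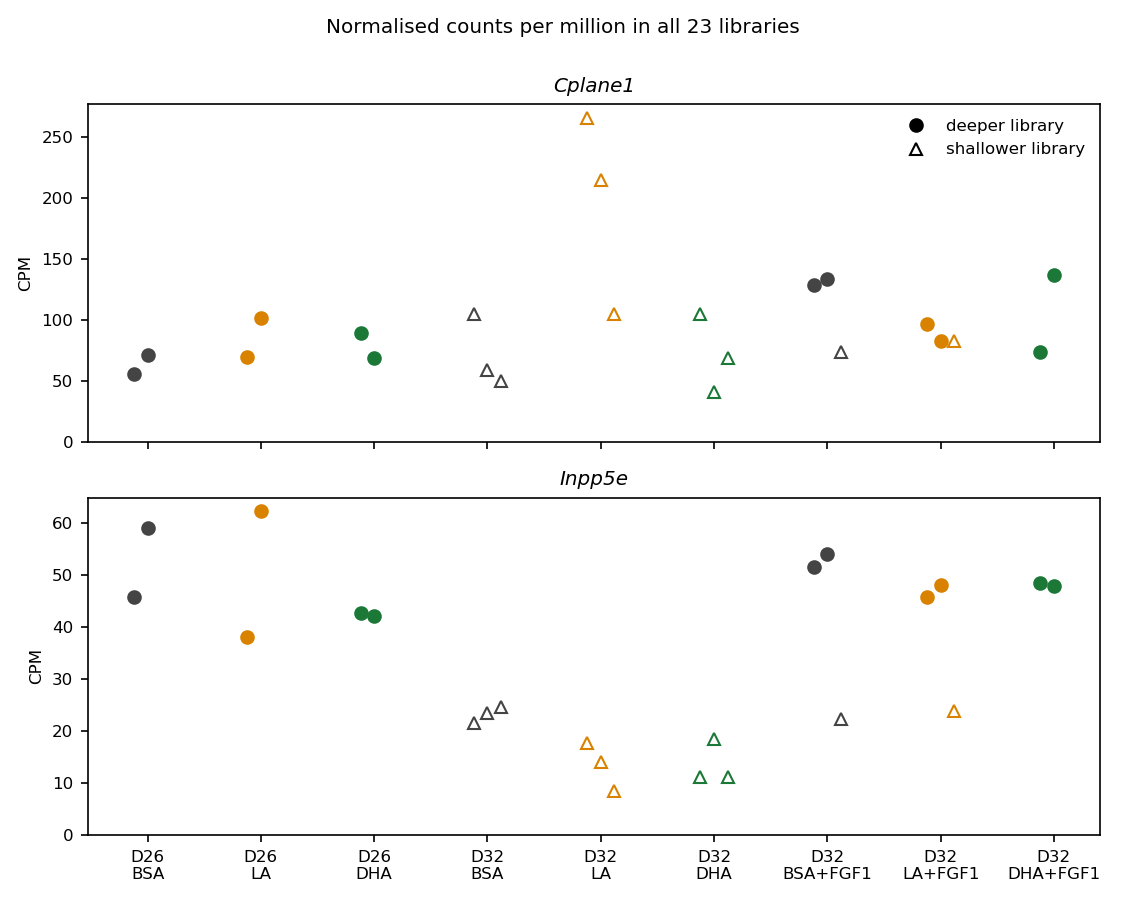
CPM of Cplane1 (upper panel) and Inpp5e (lower panel) in each of the 23 libraries by group, with filled circles for deeper and open triangles for shallower libraries, whose levels were scaled apart and are not to be compared. Cplane1 reaches 266 and 215 CPM in LA at day 32 without FGF1. Inpp5e is higher in the 3 BSA libraries of day 32 without FGF1 than in the LA and DHA libraries beside them. The libraries of day 32 without FGF1 also differ in their slope on GC content, with the lowest slopes in LA and DHA and overlapping ranges. The comparisons of media were fitted without GC offsets, and the part of GC content in them was not tested.

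Comparing media within blocks of one day, FGF1 state and replicate number, over all 23 libraries, called no member and 0% of all genes for DHA minus LA, 0% for DHA minus BSA and 0% for LA minus BSA (edgeR; DESeq2 and limma voom also called 0 members). At an unadjusted p under 0.05 there were 1, 1 and 2 members, against 1012, 462 and 723 of all 21124 genes in the same order. Inpp5e differed by −0.43 for DHA minus BSA (95% interval −0.78 to −0.09, adjusted p = 1.000) and by −0.37 for LA minus BSA (−0.70 to −0.04, adjusted p = 0.981). It was lower in DHA than in BSA in 7 of 7 blocks and lower in LA than in BSA in 6 of 8. Cplane1 differed by 0.58 for LA minus BSA and −0.62 for DHA minus LA, positive in 6 of 8 and negative in 5 of 7 blocks. Both genes were named for low p-values in this same comparison, so the block counts are no separate evidence and carry no test. The replicate numbers that form the blocks were not taken to pair the deeper libraries (below).

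FGF1 was separable from depth only in the shallower libraries, where 2 FGF1 libraries, both left out by the authors, stood against 9 without it. The fit has a term for the libraries left out by the authors, so in effect the 2 were set against the 3 left-out libraries without FGF1. No member and 0% of all genes were called (edgeR, 19484 genes; DESeq2 and limma voom called 0 members), and 1 member and 375 genes had an unadjusted p under 0.05. That member was Cplane1 at −1.13 (95% interval −1.90 to −0.35, adjusted p = 1), and its estimate ran from −1.79 to −0.15 over the alternatives, with −0.60 when the term was dropped. Mks1, of the MKS module, read 12.8, 11.2 and 10.1 CPM in BSA, 6.17, 11.6 and 8.46 in LA and 8.81, 22.3 and 7.88 in DHA without FGF1, and 3.71 in BSA and 4.45 in LA with it, a difference of −1.04 (−2.20 to 0.12). Bbs10 differed by 0.58. A member's interval spanned a median of 0.71 log2 units on either side of the estimate. Bbs7 differed by −0.08 (−0.68 to 0.53), Arl6 by 0.04 (−0.58 to 0.66), Bbs2 by −0.32 (−0.92 to 0.28) and Ttc8 by 0.02 (−0.53 to 0.57). These 4 are not among the lowest p-values here and are given only as values. The part of FGF1 in the main comparison, which also holds age and medium, was not tested. Between the libraries left out and kept by the authors, no member was called and 0.246% of all genes were, Cplane1 (0.87, adjusted p = 0.59), Tctn1 (−0.84) and Ift172 (−0.67) having the lowest p-values.

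Across the depth sets the members' calls followed GC content. Day 32 without FGF1 against day 26, which is also shallower against deeper, called 30 members higher (29.5% of all genes) and 16 lower (31.4%) by edgeR. Bbs5 (2.14), Arl6 (2.11), Cep290 (1.94), Bbs7 (1.83) and Bbs12 (1.65) were among the higher. FGF1 against no FGF1 at day 32 over all libraries called 14 higher (27% of all genes) and 24 lower (18.3%), with Kif17 (2.17) and Inpp5e (1.17) higher and Cep290 (−0.98), Rpgr (−0.97) and Bbs7 (−0.75) lower. Both comparisons share the day 32 libraries without FGF1.

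Across the 54 genes, which are not independent replicates, the log2 difference correlated with GC content at Pearson's r = −0.88 (Spearman's coefficient −0.88) for the first and r = 0.90 (Spearman's coefficient 0.93) for the second, against r = −0.15 (Spearman's coefficient −0.12) for the comparison within the deeper libraries. Members higher in the first had a median GC of 43.6% and those lower 53.4%, and in the second 53.8% and 43.2%; over all genes these medians were 44.1% and 55.0% in the first and 55.6% and 43.2% in the second, close to those of the members. Depth set, day and FGF1 cannot be told apart here, and the day 32 values with FGF1 above come from the deeper set alone. In that set the 21 higher members had a median GC of 47.0% and the 4 lower ones 45.3%.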

How the data were processed

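RNA of 23 libraries was measured. The submitters' processing notes name GRCm38.p6, kallisto 0.45.0, Trimmomatic 0.36 and edgeR. The gene and transcript tables deposited by the authors hold expected counts; another table, with the authors' signal in normalized CPM for 18 libraries and other columns of gene positions per the file headers, gave symbols and 1 alternative. Members were matched by symbol outside patch sequences.

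Expected counts were rounded, filtered by filterByExpr, TMM-scaled and tested by quasi-likelihood in edgeR 4.0.16 (20111 genes deeper, 19484 shallower, 21124 together), with Benjamini-Hochberg adjustment over all genes and a threshold of 0.05. Intervals are 95%. Transcripts needed at least 10 counts in at least 6 libraries. Level per length divides transcript counts by GENCODE M21 length. Other tools were DESeq2 1.42.0 and limma 3.58.1 under R 4.3.3, and matplotlib 3.10.9 under Python 3.11.15. The edgeR fits of the main comparison and of FGF1 in the shallower libraries were also run on simulated counts. The other tools and steps were not run on them. Every expression value reported comes from the deposited tables.

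Members and lists were chosen with earlier results of these data known. Values by library are given for the 5 largest differences among called members per group, the smallest difference and the highest level, and for other comparisons the called members (at most 10) or the 3 lowest p-values; of other lists, at most 4 genes. Further members complete a module. One gene of the context lists is not reported here.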

Additional observations from a re-analysis of the deposited data

How the results depend on the processing

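The count of members called at day 32 with FGF1 against day 26 (25) was 25 with RLE size factors, GC offsets, DESeq2, limma voom, and the replicate block with or without GC offsets, 24 with limma on the authors' normalized values, 22 with no filter on low counts, and 17, all higher, with all 23 libraries and a term for the library set; that fit no longer called Ift52, Ift172, Iqcb1, Tctn1, Tctn2, Cplane1, Rp2 and Pde6d. Leaving out 1 library gave 21 to 25. No member called in the main comparison changed direction in these fits. Of all genes, the main fit called 5773 of 20111, the fit with no filter 6563 of 35601 and that with the set term 3072 of 21124. The fit on the authors' normalized values called 5877 of 20111, and the fits with 25 members called 5704 to 6412. The fall to 17 members thus came with fewer calls over all genes. Leave-one-out ranges were 0 to 9 for the step in BSA, 0 to 1 in LA, 1 to 16 in DHA, and 1 to 5 for member transcripts. DESeq2 called 1 member (Cplane1) for DHA minus LA and 1 for LA minus BSA at day 32 without FGF1, where edgeR called 0. For member transcripts limma diffSplice called 9 where edgeR called 3, and over all 44839 transcripts it called 924 where edgeR called 439. The cause of these differences was not tested.

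Same-numbered deeper libraries had residual correlations of −0.12 to 0.35, over 0.1 in 6 of 15 distinct values (with 2 libraries a group, both pairs share 1 value), so the numbers were not taken to pair them across the set. Within day 32 with FGF1 all 3 values were over 0.1 (0.16 to 0.35), and the replicate block called 0 members between media there. With the replicate block the steps by medium called 7 in BSA, 0 in LA and 16 in DHA, and no count moved by over 1.5 times. Among the shallower libraries 5 of 9 pairs were over 0.1 (−0.34 to 0.59), and a replicate block in place of the term for left-out libraries called 0 members.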
